A study of Mus musculus with 9 samples.

Results

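The Prdm1 locus of the mouse was examined in 9 libraries of chromatin immunoprecipitation sequencing: 6 immunoprecipitated libraries and 3 inputs. The locus was taken by position alone, as all 2 kb windows that lie within 43900000 to 44450000 of chromosome 10 (build mm9). These were 549 of the 2654924 windows in the count tables. The Prdm1 gene lies near 44157000 to 44178500, a span of 21.5 kb. RefSeq places the gene on the minus strand, so its 5′ end is the high-coordinate end, and upstream here means toward higher coordinates. In the RefSeq gene order (GRCm38.p6) the neighbouring protein-coding genes are Atg5 on the 3′ side and Prep on the 5′ side.

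Prdm1 encodes BLIMP1, a transcriptional repressor with a PR domain and zinc fingers. It is required for the specification of primordial germ cells, the founders of the germline, and it is among the first genes to mark them in the epiblast. BMP signalling from neighbouring tissue, carried to chromatin by SMAD1, and WNT signalling, which acts through TCF and LEF factors such as TCF1, both precede its activation. T, or Brachyury, belongs to the T-box family, acts in early mesoderm and is switched on by WNT.

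All cells were labelled as C57BL/6 and as epiblast-like cells. They came from mouse embryonic stem cells and were then grown as floating aggregates in medium that held leukaemia inhibitory factor and, in some cultures, BMP4 or WNT3A. Which library received which cytokine is not given in the sources used here. The BV line is labelled as a Blimp1-mVenus reporter, a fluorescent reporter for Prdm1 itself, and the PV line as a Prdm14-mVenus reporter, for another gene of germ cell specification. How either reporter was built is not given in the labels. SMAD1 was profiled in BV at 12, 24 and 36 h and in PV at 36 h, TCF1 in BV and T in PV. No time is given for the T and TCF1 libraries. The inputs, chromatin sequenced without immunoprecipitation, are titled PV, BV and BVSC, and the label of BVSC gives the BV genotype. Each group had 1 library, so no value below has a replicate check and no p-value is given between libraries.

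The immunoprecipitated libraries held 14925074 to 43354004 reads and the inputs 42532115 to 134657262. An average autosomal window held 11.8 to 34.2 counts in the immunoprecipitated libraries and 33.5 to 106 in the inputs. Counts were divided by the library's own mean over autosomal windows, and the quotient is called the level. Enrichment is the level over the level of the input of the same line, with a pseudocount of 0.5 added to both. Plain ratios carry no pseudocount and are given with exact 95% intervals on the split of the 2 counts. These intervals hold counting error alone, because PCR can copy 1 molecule into several reads. Median levels of chromosome 10 lay between 0.971 and 1.08 in the 9 libraries.

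The sequence upstream of the Prdm1 start is shown because signal near the 5′ end of the gene is described further on. Its position was not carried to mm9, so it is not assigned to any count window. It is the RefSeq sequence of chr10:44458749-44458998 (GRCm38.p6, minus strand), the 250 bases that end at the annotated start, written 5′ to 3′. No base is in capitals because no searched motif was found.
Prdm1 promoter: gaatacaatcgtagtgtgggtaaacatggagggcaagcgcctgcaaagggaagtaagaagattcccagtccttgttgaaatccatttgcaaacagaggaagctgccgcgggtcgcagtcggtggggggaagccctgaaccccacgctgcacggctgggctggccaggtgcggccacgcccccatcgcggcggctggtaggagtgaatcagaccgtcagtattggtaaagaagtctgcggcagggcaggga
Its G and C content was 59.2%, against a median of 52.4% over the 32851 RefSeq promoter windows of the same length. The 4 motifs were searched on both strands with no mismatch. They were AGGTGTGA for T-box factors, held by 1.12% of all such promoters, GGCGCC (9.59%) and GTCTAGAC (0.167%) for SMAD factors, and CTTTGA (13.8%) for TCF and LEF factors. Their absence says only that these letters do not occur in this window. The mm9 sequence under the binding signals was not used here.

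The clearest feature of the locus was a block of raised DNA level in the line that reports Prdm1. From 44090001 to 44320001, a segment of 230 kb and 229 windows, input BV had a median level of 12.2 and input BVSC of 6.03, whereas input PV had 1.22. In the other 320 windows of the locus the medians were 1.19, 1.09 and 1.10 in the same order. The segment began 67 kb beyond the 3′ end of Prdm1 and ended 141.5 kb upstream of its 5′ end, so it held the whole gene. It was found as the longest run in which the ratio of input BV to input PV, as a running median over 11 windows, was at least 1.5. The same bounds were obtained with input BVSC in place of input BV.

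**Figure D1:**
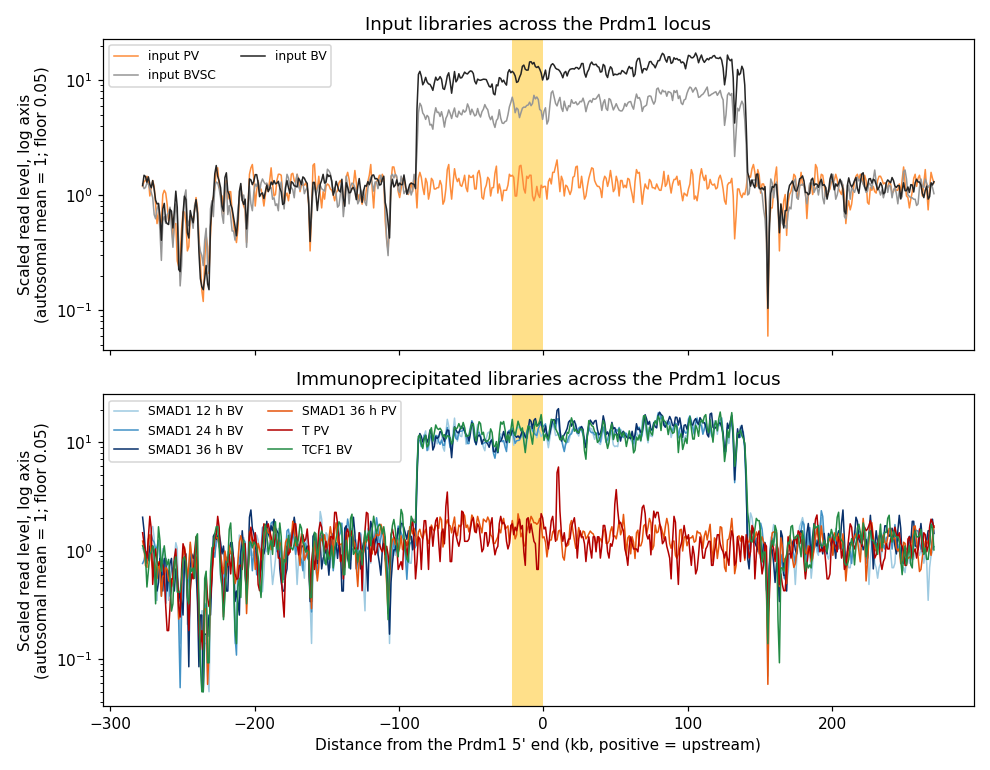
Scaled read level (log axis, autosomal mean of 1) against distance from the Prdm1 5′ end in kb, for the 3 inputs (top) and the 6 immunoprecipitated libraries (bottom). The yellow band is the gene. Over the 230 kb segment the BV libraries stand near 12 and input BVSC near 6, while the PV libraries stay close to their level outside it.

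Both edges were sharp at the resolution of the windows. On the 3′ side input BV held 121 counts in the window starting at 44089001, 591 in the next and 1188 in the one after. Input BVSC went from 50 to 88 and 191 counts in the same windows. On the upstream side input BV went from 1304 counts at 44316001 to 960, 431 and 168 in the following windows, and input BVSC from 226 to 166, 100 and 37. Input PV held 35, 34, 39 and 51 counts there, with no such drop. The edges thus fell in the same windows in both inputs labelled as BV.

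Relative to input PV, and to the rest of the locus, the segment stood at 9.69 in input BV (95% counting interval 9.30 to 10.1). The 4 immunoprecipitated BV libraries stood close to this. SMAD1 gave 10.4 at 12 h (9.84 to 11.04), 10.1 at 24 h (9.57 to 10.6) and 10.6 at 36 h (9.96 to 11.2). TCF1 gave 9.82 (9.33 to 10.3). Input BVSC stood apart at 5.22 (4.98 to 5.48), and its excess over 1 was 48.6% of that of input BV. The window counts of input BVSC were made in another way than the others, as described under processing. Its interval and this share may therefore carry an uncertainty beyond counting error. In level over the segment, the BV immunoprecipitates therefore stood nearer to the input titled BV than to the one titled BVSC. Reads of the native locus and of any further copies of it cannot be told apart in these counts.

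The level within the segment was not flat. In bins of 10 kb, the ratio of input BV to input PV ranged from 7.19 (6.26 to 8.30) in the bin starting at 44140001 to 12.6 (10.97 to 14.6) in the bin starting at 44270001. The ratio was also taken on each side of the middle 2 kb window of the segment, which was left out. It stood at 8.52 (8.18 to 8.87) on the side that holds the gene. On the far, upstream side it stood at 10.97 (10.5 to 11.4), and the first over the second gave 0.777. Among 10458 pairs of neighbouring autosomal blocks of 110 kb, slightly shorter than these sides, 0.143% were at least as unequal in these inputs. Input BVSC followed the same course. Its ratio to input BV lay between 0.475 and 0.531 in all 23 bins of the segment, and the gene side over the far side gave 0.987.

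No window inside the segment returned to the level seen outside it in input BV. Leaving out the 2 windows at each edge, the lowest ratio of input BV to input PV, with pseudocount, was 3.88 at 44144001, where input BV held 790 counts and input PV 52. Over the 24 windows of the gene, levels ran from 9.57 to 14.5 in input BV, from 4.56 to 7.39 in input BVSC and from 0.896 to 1.82 in input PV. The window starting at 44310001 dipped in every input, to 4.24 in BV, 2.17 in BVSC and 0.418 in PV.

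The PV immunoprecipitates were also slightly higher in this segment than in their input. Relative to input PV and the rest of the locus, SMAD1 at 36 h in PV stood at 1.201 (1.14 to 1.27) and T at 1.17 (1.09 to 1.246). These excesses are 2.31% and 1.92% of that of input BV. Reads on chromosome Y, which input PV held at 0.230% of the level of input BV, stood at 1.77% in SMAD1 of PV and 0.834% in T, and the part of such reads in the excess was not tested. The plain ratios to input PV varied between the bins of 10 kb of the segment. That of T ran from 0.704 (0.533 to 0.921) at 44280001 to 1.66 (1.36 to 2.01) at 44180001, with a median of 1.16. That of SMAD1 ran from 0.890 (0.738 to 1.07) at 44180001 to 1.61 (1.34 to 1.95) at 44170001, with a median of 1.12. Input BV stood at levels of 15.7, 12.3 and 12.5 in the bins starting at 44280001, 44180001 and 44170001.

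T gave the only windows of the locus with an enrichment of 2 or more. It passed this level in 4 windows of the locus (0.729%), against 0.44% of all autosomal windows. The count is therefore near the background share, and only the strongest of these windows stood well above the others. At 3-fold or more T had 1 window, against a background of 0.0954%. At 1.5-fold it had 43 windows (7.83%, background 3.94%), of which 27 lay in the segment. T was slightly raised over the segment as a whole, with a median enrichment of 1.05 there and 0.976 outside. Neighbouring windows also share reads, so the 43 windows do not mark as many separate places of binding. The 4 windows formed 3 regions, and all 3 lay upstream of Prdm1, within the segment.

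**Figure D2:**
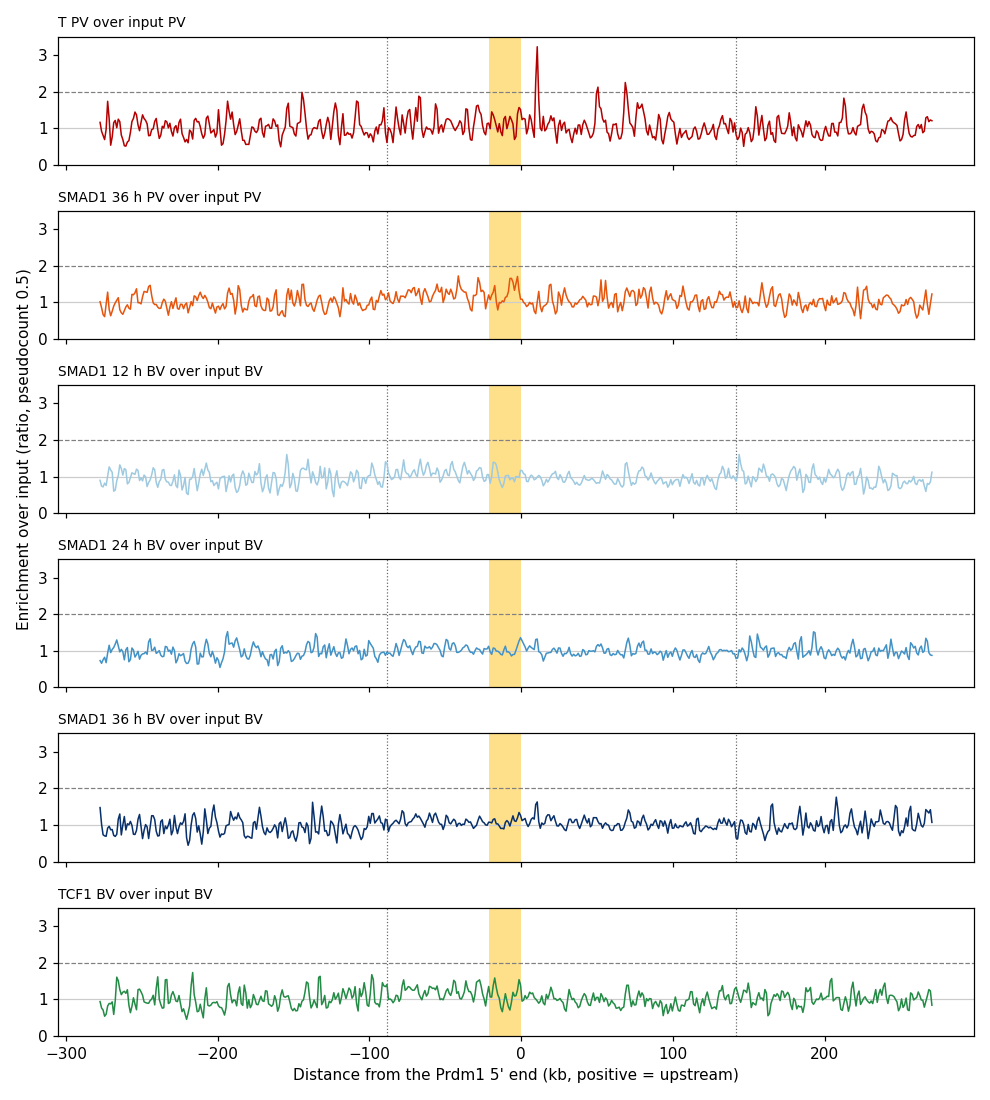
Enrichment over the input of the same line (pseudocount 0.5) against distance from the Prdm1 5′ end in kb, 1 panel per immunoprecipitated library. The yellow band is the gene, dotted lines bound the raised segment and the dashed line marks 2-fold. T rises to 3.22 upstream of the gene and passes 2-fold at 2 further places, while the other 5 libraries stay below 2.

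The strongest T region ran from 44187001 to 44190001, which is 8.5 to 11.5 kb upstream of the 5′ end of Prdm1. Its highest window, from 44188001 to 44190001, held 97 T counts against 50 in input PV. The level of T there was 5.93 and that of its input 1.49, an enrichment of 3.22 and a plain ratio of 3.97 (2.79 to 5.70). The window before it held 86 counts against 68 (enrichment 2.27, plain ratio 2.59, 1.86 to 3.61) and the window after it 38 against 36 (1.79). At 44186001 and 44190001 enrichment was 0.75 and 1.00. Both high windows share the kilobase that starts at 44188001. Over all autosomal windows 1962 of 2472353 (0.0794%) had T enrichment this high or higher. The window was picked as the highest of 549, so this share does not tell how often a locus of this size holds such a window.

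SMAD1 differed between the libraries at this place. At 44188001 its levels in BV at 12, 24 and 36 h were 12.2, 16.5 and 20.5, on 175, 303 and 241 counts, against 12.4 in input BV on 1308 counts. Enrichment was 0.99 at the earliest time (plain ratio 0.988, 0.839 to 1.16), 1.32 at the next (1.34, 1.18 to 1.52) and 1.63 at the last (1.66, 1.44 to 1.90). The 36 h value was the highest of the 229 windows of the segment for that library, whose enrichments had a 5th to 95th percentile range of 0.869 to 1.27. The 24 h value ranked 3 of 229 and the 12 h value 106. The intervals at 12 and 36 h did not overlap.

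Set against each other without an input, SMAD1 at 36 h stood at 1.68 times its 12 h level in this window (1.37 to 2.05), and at 1.69 times in the preceding window (1.38 to 2.08). These were the 2 highest values of that ratio in the segment, where its median was 1.08 and its 5th to 95th percentile range 0.83 to 1.39. SMAD1 at 24 h stood at 1.35 (1.12 to 1.64) and 1.41 (1.17 to 1.72) times its 12 h level in the same windows. In the next window, at 44189001, the ratio of 36 to 12 h was 1.06 (0.848 to 1.32). The signal was thus held in the 2 windows where T was also highest.

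In PV at 36 h SMAD1 showed no such signal at 44188001, with 52 counts, a level of 1.52, an enrichment of 1.01 and a plain ratio of 1.02 (0.677 to 1.53). This interval overlapped that of the BV library. In the window before it, SMAD1 in PV had a plain ratio of 0.619 (0.413 to 0.920) and in BV 1.58 (1.37 to 1.82). Input PV stood at its highest level of the segment in that window, 2.03 on 68 counts. Within PV, where no input enters, T stood at 3.90 times SMAD1 at 44188001 (2.76 to 5.57) and at 4.18 times in the window before (2.87 to 6.18). TCF1 was at the level of its input there, with 254 counts, a level of 11.7 and an enrichment of 0.95 (plain ratio 0.951, 0.828 to 1.09).

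**Figure D3:**
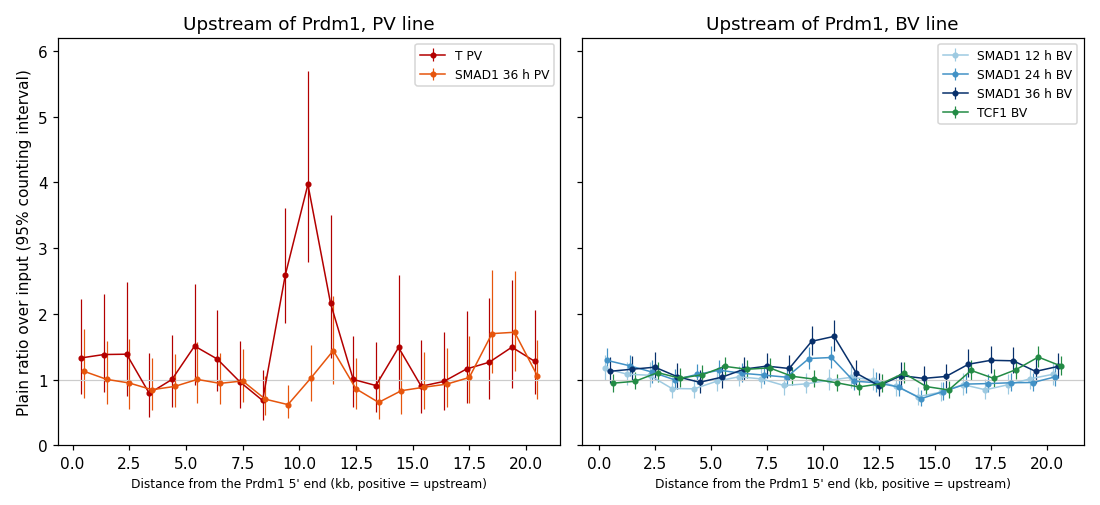
Plain ratio over the input of the same line, with 95% counting intervals, for 2 kb windows upstream of Prdm1, PV libraries (left) and BV libraries (right), against distance from the 5′ end in kb. T reaches 3.97 at 10.5 kb, where SMAD1 of BV at 12, 24 and 36 h reads 0.988, 1.34 and 1.66.

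The other T regions were weaker. The one at 44246001 to 44248001, 67.5 to 69.5 kb upstream, held 41 T counts against 28 in the input, at levels of 2.50 and 0.836 (enrichment 2.25, plain ratio 2.996, 1.81 to 5.03). SMAD1 enrichment there was 1.34, 1.02 and 1.08 at the 3 times in BV and 1.29 in PV, and TCF1 had 1.13. The one at 44228001 to 44230001, 49.5 to 51.5 kb upstream, held 60 counts against 49, at levels of 3.67 and 1.46 (enrichment 2.12, plain ratio 2.51, 1.69 to 3.73). There SMAD1 had 0.84, 1.17 and 1.10 at 12, 24 and 36 h in BV and 0.91 in PV, and TCF1 had 1.05. Outside the segment T was highest at 44033001 to 44035001, with 37 counts against 30 and an enrichment of 1.98, just short of 2-fold.

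Over the gene itself no library stood far above its input. The median enrichment of the 24 gene windows was 1.14 for T, 1.01, 0.99 and 1.08 for SMAD1 at 12, 24 and 36 h in BV, 1.18 for SMAD1 in PV and 1.09 for TCF1. Over the whole locus these medians were 1.00, 0.96, 0.97, 1.02, 1.02 and 1.01. In the 10 kb upstream of the gene they ran from 0.96 (SMAD1 in PV) to 1.15 (SMAD1 at 36 h in BV), and in the 10 kb on its 3′ side from 1.04 (SMAD1 at 24 h) to 1.34 (T).

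Within the gene, T and SMAD1 of BV at 24 and 36 h were highest in windows near the 5′ end. T had its highest gene window at 44176001, with 36 counts against 41 and an enrichment of 1.57 (plain ratio 1.80, 1.12 to 2.88). SMAD1 at 36 h in BV had its own in the same window, with 185 counts against 1225 (1.34, plain ratio 1.36, 1.16 to 1.59). The T value lay below the 95th percentile of T over the segment, 1.65, so it is not unusual there. That of SMAD1 at 36 h lay above its own 95th percentile, 1.27. SMAD1 at 24 h had it in the next window, at 44177001, with 254 counts against 1063 (1.36, plain ratio 1.38, 1.197 to 1.58). That was also its highest window of the segment. SMAD1 at 12 h read 0.98 and 1.17 at 44176001 and 44177001, and SMAD1 in PV 1.32 and 1.09.

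TCF1 was highest in the gene at 44160001, toward the 3′ end, with 339 counts against 1030, levels of 15.7 and 9.73 and an enrichment of 1.58 (plain ratio 1.61, 1.42 to 1.82). It was nearly as high at 44176001, with 390 counts (1.54, plain ratio 1.56, 1.39 to 1.75). At 44160001 SMAD1 read 1.39, 1.07 and 1.17 at the 3 times in BV and 1.46 in PV, and T read 1.23. SMAD1 in PV was highest in the gene at 44175001, with 68 counts against 32 (1.71, plain ratio 2.08, 1.35 to 3.27). Around that window input PV stood low. In the bin of 10 kb from 44170001 the level of SMAD1 in PV was 1.74 against 1.08 in its input, a plain ratio of 1.61 (1.34 to 1.95). The BV libraries gave 0.998, 1.07 and 1.16 for SMAD1 at 12, 24 and 36 h in that bin, and input BV over input PV read 11.6 (10.0 to 13.5), above both neighbouring bins.

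SMAD1 and TCF1 had no window of 2-fold or more anywhere in the locus. The background for SMAD1 in BV at 12, 24 and 36 h was 0.17%, 0.0345% and 0.0505%. It was 0.0585% for SMAD1 in PV and 0.0937% for TCF1. At 1.5-fold SMAD1 in BV had 2 windows at 12 h (background 3.06%), 2 at 24 h (1.54%) and 11 at 36 h (2.65%). SMAD1 in PV had 12 (1.77%) and TCF1 had 17 (3.52%). As shares of the locus these are 0.364, 0.364, 2.00, 2.19 and 3.10%, near or below the background. Within the segment lay 0, 0 and 2 of the windows of SMAD1 in BV, 11 of those of SMAD1 in PV and 6 of those of TCF1. SMAD1 in PV was slightly raised over the segment as a whole, with a median enrichment of 1.11 there and 0.969 outside. Its 11 windows therefore do not by themselves mark places of binding. For the BV libraries the autosomal background is not a like measure inside the segment. Their median levels there were 11.9, 12.2 and 12.9 for SMAD1 and 12.4 for TCF1, so counting error moves their ratios less than in average windows. The BV and PV counts of windows in the segment are therefore not comparable.

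The highest window of each of these libraries held 28 to 67 counts. SMAD1 reached 1.61 at 12 h at 44321001 (32 counts), where the other SMAD1 libraries read 0.94 to 1.05. At 24 h it reached 1.53 at 43984001 (31 counts), where T read 1.74 and the other SMAD1 libraries 0.79 to 1.26. At 36 h in BV it reached 1.76 at 44385001 (28 counts), and in PV 1.72 at 44136001 (67 counts against 31), where the BV libraries of SMAD1, on 125 to 179 counts, read 0.89 to 1.04. TCF1 reached 1.73 at 43961001 (39 counts), where all SMAD1 libraries read between 0.91 and 1.27.

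Across broader stretches, the side of the segment that holds Prdm1 gave higher ratios over input than the far side. The plain ratios were 1.21 (1.13 to 1.29) and 1.05 (0.977 to 1.12) for T and 1.22 (1.15 to 1.29) and 1.09 (1.03 to 1.16) for SMAD1 in PV, which share input PV. TCF1 gave 1.14 (1.12 to 1.16) and 0.933 (0.917 to 0.949). In BV, where all libraries share input BV, SMAD1 gave 1.05 and 0.922 at 12 h, then 1.05 and 0.956 at 24 h, then 1.11 and 1.02 at 36 h. Differences of this size also occurred elsewhere. Among pairs of neighbouring autosomal blocks, the share at least as unequal was 6.45% for TCF1, 12.8% for T, 12.6% for SMAD1 in PV and 14.3, 21.5 and 27.9% for SMAD1 at 12, 24 and 36 h. For the BV libraries the sides of the segment held 8121 to 15443 reads, more than average autosomal blocks of that length. Counting error thus adds more to the autosomal pairs, and the BV shares may overstate how common such differences are.

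**Figure D4:**
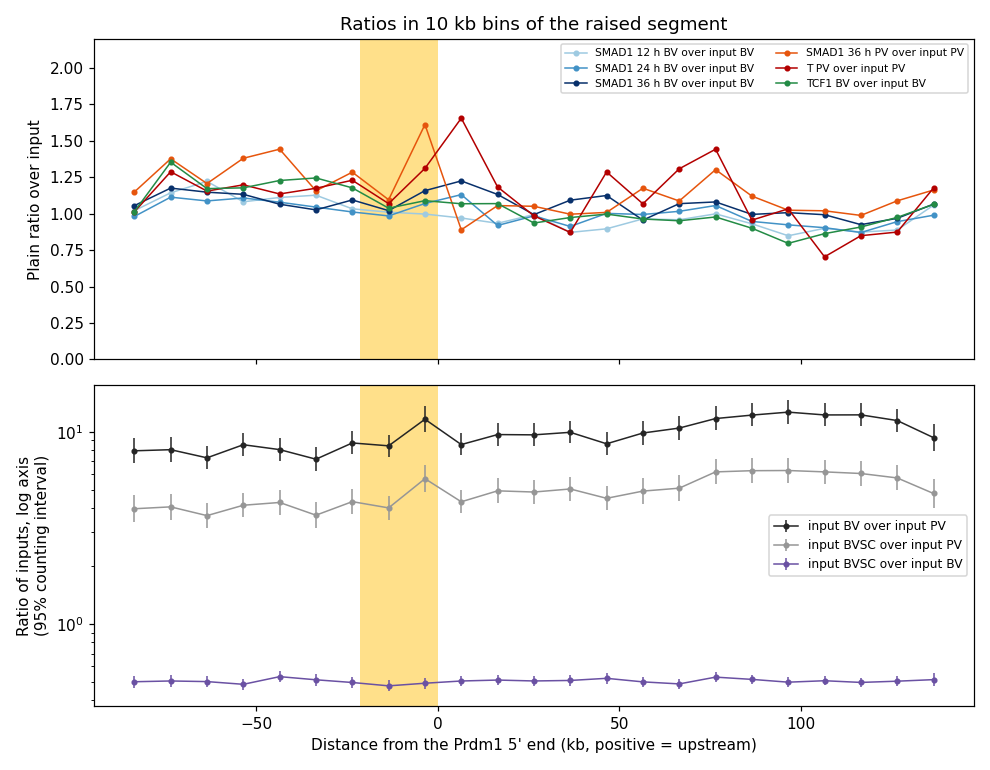
Plain ratios in the 23 bins of 10 kb of the raised segment against distance from the Prdm1 5′ end in kb, for each immunoprecipitated library over its input (top) and between inputs (bottom, log axis, 95% counting intervals). The yellow band is the gene. Input BV over input PV runs from 7.19 to 12.6, while input BVSC over input BV stays between 0.475 and 0.531.

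In bins of 10 kb with an enrichment of 1.2 or more, T and SMAD1 in PV each had 6 of the 55 bins of the locus (10.9%), against 7.44% and 3.99% of autosomal bins, and all 6 lay in the segment for each. Both libraries were slightly raised over the segment as a whole, with median plain ratios of 1.16 and 1.12 in its bins. The threshold lies close to this, so the counts do not mark separate places of binding. TCF1 had 5 (background 11.7%), of which 3 lay in the segment. SMAD1 in BV had 1 bin at 12 h (background 7.5%), 0 at 24 h (4.98%) and 1 at 36 h (5.97%). For the BV libraries these backgrounds are again not a like measure inside the segment, where their counts are higher. Among the 23 bins of the segment, the bin from 44180001 to 44190001, just upstream of Prdm1, was the highest for T (plain ratio 1.66, 1.36 to 2.01), for SMAD1 at 24 h (1.13, 1.06 to 1.201) and for SMAD1 at 36 h in BV (1.23, 1.14 to 1.31). This bin holds the window at 44188001, so it is not a separate result. That window gave 97 of its 195 T counts, and 303 of 1280 and 241 of 889 for SMAD1 at 24 and 36 h. The windows of the 10 kb upstream of the gene, which stop before 44188001, had median enrichments of 1.12 for T and 1.08 and 1.15 for SMAD1 at these times. In the same bin SMAD1 read 0.971 at 12 h (0.903 to 1.04) and 0.890 in PV (0.738 to 1.07), the lowest of that PV library in the segment, and TCF1 read 1.07 (1.01 to 1.13).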

How the data were processed

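The authors deposited whole-number read counts per window with no normalization, as the values show, in 2 kb windows that step by 1 kb. Each read thus falls in 2 windows, and depth was summed over every other window. Per the submitters' processing notes, Bowtie 0.12.8 and mm9 were used. No source used here states a filter on duplicate reads. When overlapping windows were split into 1 kb bins, 47.4% of bins fell below 0 in input BVSC and at most 0.291% in the other libraries, so the counts of input BVSC were made in another way and only whole windows of it were used. Computation used Python 3.11.15, NumPy 2.4.6, pandas 2.3.3 and SciPy 1.17.1. The functions that find segments and regions were tested on simulated data.

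Windows of at least 2-fold enrichment were merged into regions, and up to 6 regions per library, or else the highest window, were described, together with all windows of the gene and of 10 kb on either side. The bins of 10 kb, the comparison of the 2 sides of the segment (with blocks of input level of at least 0.5) and the segment relative to the rest of the locus, with intervals from counting error on the log scale, were added after seeing the data. The locus, lists and tests were chosen with earlier results of these data known. Alternatives changed the pseudocount, input, scaling and threshold. RefSeq tables of GRCm38.p6 gave strand, gene order and promoter sequence, with none of their positions carried to mm9.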

Additional observations from a re-analysis of the deposited data

Results flagged for a closer look

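SMAD1 at 36 h lay on opposite sides of its input in the 2 lines at the T region from 44228001 to 44230001, with an enrichment of 1.10 in BV (145 counts, plain ratio 1.10, 0.921 to 1.31) and 0.91 in PV (44 counts, 0.879, 0.572 to 1.35). Both intervals include 1, there is 1 library per line, and the difference was not tested.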

How the results depend on the processing

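The input decided most at this locus. With input BVSC in place of input BV, the windows at 2-fold or more rose from 0 for SMAD1 to 78, 78 and 120 at the 3 times in BV and for TCF1 to 109, and with input PV to 230, 229, 229 and 230. For T the count of 4 became 1 with input BVSC and 0 with input BV, and the enrichment of 3.22 in the window starting at 44188001 became 0.908 and 0.50 there. These changes follow from the level of the segment in each input. With a pseudocount of 0.1 T had 17 windows, TCF1 had 3 and SMAD1 had 1 each at 24 h, at 36 h in BV and in PV, and with a pseudocount of 1 the count was 2 for T. T had 7 windows when scaled to the chromosome 10 median and 1 at 3-fold. At 1.5-fold T had 43, TCF1 had 17, SMAD1 in BV had 2, 2 and 11, and SMAD1 in PV had 12. T enrichment at 44188001 kept above 2 under every pseudocount and scaling tried (2.78 to 3.78), and SMAD1 at 36 h in BV read 1.54 to 1.72 there under them and after division by the segment median, an alternative chosen after seeing the data. The segment stayed at 230 kb under all 6 alternatives. No paired analysis was possible because each group has 1 library. Depth limits what single windows can show: an average autosomal window held 11.8 to 34.2 counts in the immunoprecipitated libraries.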
